A study of Mus musculus with 55 samples.

Results

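DNA synthesis and replication fork genes are described here as a set of 37 mouse genes, followed at the level of pre-mRNA while embryonic stem (ES) cells left mitosis. The members were taken by gene symbol and known role, with earlier results of these data known when the list was drawn up: DNA polymerases alpha, delta and epsilon with their subunits, the sliding clamp and its loader, replication protein A, GINS and Cdc45, the ligase and flap nuclease, enzymes of nucleotide supply, fork scaffold and checkpoint mediator proteins, and chromatin assembly factor 1. All 37 were listed in both tables, among 9911 genes in CCNA-GFP cells and 10237 genes in CTCF-AID cells. Both lines derive from E14Tg2a ES cells of strain 129/Ola and were grown in serum with LIF. CCNA-GFP cells carry a cyclin A-GFP reporter and gave 19 libraries: 3 mitotic, 3 asynchronous, a pair for every release time of 20, 30, 40, 60, 90 and 120 min, and 1 for 50 min (replicate 3). CTCF-AID cells (line #EN52.9.1) carry CTCF fused to an auxin-inducible degron and gave 18 libraries without and 18 with the auxin IAA, each arm with 3 mitotic, 3 asynchronous and a pair for every release time of 20, 40, 50, 60, 90 and 120 min. Mitotic cells of both lines were obtained with the CDK1 inhibitor RO-3306 at 10 µM for 4 h, then nocodazole at 50 ng/ml for 4 h and shake-off, and release began when nocodazole was washed out. IAA, which leads to degradation of the tagged protein, was added at 0.5 mM during the nocodazole block and kept during release, and asynchronous cells of that arm received it too. Cells without IAA carry the same tagged CTCF.

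Replication forks copy DNA with a division of labour. The CMG helicase, in which Cdc45 and the GINS complex join the MCM ring, unwinds the duplex, and replication protein A coats the exposed single strands. Polymerase alpha-primase lays down primers, replication factor C loads the PCNA clamp, and polymerases epsilon and delta extend the leading and the lagging strand. Fen1 and Lig1 process and join the lagging-strand fragments, ribonucleotide reductase and thymidylate synthase provide deoxynucleotides, Timeless, Tipin, Claspin and Wdhd1 tie the machinery together, and CAF-1 places histones behind it. Many of these genes are known targets of E2F transcription factors, and ES cells pass through a short G1 phase before they replicate. Pre-mRNA still carries introns and is short lived, so its level follows ongoing transcription more closely than that of mature mRNA.

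The members lie on 16 chromosomes of GRCm38 (mm10), and their genes span from 2.42 kb for Pole3 to 327 kb for Pola1, with a median of 20.9 kb against 22.7 kb over all genes of the CCNA-GFP table. RefSeq windows around the gene starts (GRCm38.p6, 250 bases before to 50 after, 300 bases in all) were at hand for 30 members. In them 3 kinds of short motif were searched on both strands: the E2F words TTTCGCGC, TTTGGCGC and TTTCCCGC, the CCAAT box (CCAAT) and a core of the CTCF motif (AGGNGGC). An E2F word stood in the windows of 9 members (30% of 30; Clspn, Gins3, Lig1, Pola1, Pold1, Pold3, Pole2, Pole4 and Rfc3), against 2.12% of all 27025 genes with a window (1.84% of 32851 windows, some genes having several). A CCAAT box was present in 15 members (50%), against 41.1% of all genes (37.4% of windows), and the CTCF core in 14 members (46.7%), against 31.8% of all genes (29.4% of windows). All genes here are those with a RefSeq window, a wider set than the 9911 and 10237 listed genes that serve as background elsewhere. Shares among the listed genes were not counted. These matches of letters are descriptions and not measured binding. The 250 bases upstream of the start are shown for selected members, 5′ to 3′ on the strand of the gene and with motif matches in capitals. Fen1 had the largest increase at 60 min in CCNA-GFP and Chaf1b in CTCF-AID without IAA, on the log2(TPM + 1) scale. Chaf1a is the partner subunit of Chaf1b. Rrm1, the large subunit of ribonucleotide reductase, was picked for its 2 CCAAT boxes. Pola1 was the member not called at 60 min in either line.
Fen1 (chr19:10204394-10204643, minus strand): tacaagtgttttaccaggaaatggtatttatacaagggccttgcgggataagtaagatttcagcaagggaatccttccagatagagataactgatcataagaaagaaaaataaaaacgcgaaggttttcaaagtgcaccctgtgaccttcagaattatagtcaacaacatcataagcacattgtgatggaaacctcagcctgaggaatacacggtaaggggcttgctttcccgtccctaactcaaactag
Chaf1b (chr16:93883651-93883900, plus strand): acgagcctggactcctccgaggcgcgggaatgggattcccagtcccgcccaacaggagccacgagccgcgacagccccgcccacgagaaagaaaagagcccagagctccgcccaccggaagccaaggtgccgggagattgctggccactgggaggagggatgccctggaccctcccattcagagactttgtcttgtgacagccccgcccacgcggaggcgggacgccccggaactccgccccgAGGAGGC
Chaf1a (chr17:56040166-56040415, plus strand): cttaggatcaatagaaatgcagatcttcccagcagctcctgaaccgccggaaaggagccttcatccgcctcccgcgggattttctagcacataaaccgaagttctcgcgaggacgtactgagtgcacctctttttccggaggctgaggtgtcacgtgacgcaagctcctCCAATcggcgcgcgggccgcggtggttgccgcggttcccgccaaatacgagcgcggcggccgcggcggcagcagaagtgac
Rrm1 (chr7:102441445-102441694, plus strand): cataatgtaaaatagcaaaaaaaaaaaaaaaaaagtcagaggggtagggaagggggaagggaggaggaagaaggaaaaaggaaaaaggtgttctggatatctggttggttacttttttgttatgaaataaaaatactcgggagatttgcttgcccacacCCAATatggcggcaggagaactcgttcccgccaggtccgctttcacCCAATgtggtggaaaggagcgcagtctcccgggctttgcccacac
Pola1 (chrX:93632156-93632405, minus strand): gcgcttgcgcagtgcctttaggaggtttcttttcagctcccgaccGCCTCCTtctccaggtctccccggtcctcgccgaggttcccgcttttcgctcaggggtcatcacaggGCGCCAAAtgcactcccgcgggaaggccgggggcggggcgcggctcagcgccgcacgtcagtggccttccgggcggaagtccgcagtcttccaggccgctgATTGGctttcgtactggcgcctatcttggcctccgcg
The Chaf1b stretch ends with a CTCF core directly before the start and Chaf1a has a CCAAT box. The Pola1 stretch holds all 3 kinds, a CTCF core, an E2F word and, nearest to the start, a CCAAT box, each read on the opposite strand. Fen1, shown from the more upstream of its RefSeq starts, holds none of these letters there.

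The deposited values are abundances of the pre-mRNA isoform in TPM (a unit that is corrected for length and library total), so read depth is unknown and error comes from the spread between libraries. Listed TPM summed to 13747–17245 in the mitotic and 30992–42576 in the 60 min libraries of CCNA-GFP, and to 18606–23302 and 38416–39173 in CTCF-AID without IAA, so sums moved with stage. Members held 0.388–0.616% of these sums in CCNA-GFP and 0.374–0.613% in CTCF-AID libraries. Of 8 ES cell markers 7 were listed, all but Sox2, and their sum was 28.2–107 TPM in CCNA-GFP libraries. Of 11 markers of other cell types 2 were listed in CCNA-GFP, T and Pax6, with a sum of 0.141–2.05 TPM, and 5 in CTCF-AID, with a sum of 0.681–10.6 TPM. Their part in the results was not tested. Replicate libraries correlated with Spearman's rho of 0.918–0.984 over 36 pairs and no 2 libraries were copies. Per the study's methods the replicates were independent. Libraries of replicate 1 cover every release time but 50 min in CCNA-GFP and those of the other two alternate, so stages differ in the replicates they hold.

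As cells left mitosis, pre-mRNA of most members rose between 30 and 60 min after release, on the deposited scale. In CCNA-GFP cells no member was called at 20 min (0% of all genes were called higher by limma at an adjusted p of 0.05; 3 members and 253 genes had an unadjusted p under 0.05) or at 30 min (0.303% of all genes; 11 members and 1135 genes at an unadjusted p under 0.05), while 3 members were called at 30 min with a pseudocount of 0.1 (2.48% of genes), 1 among genes averaging 1 TPM or more (2.75%) and 3 after division by each library's own scaling factor (3.63%). At 40 min 27 of 37 members were higher than in mitosis, where 49.3% of all genes were. At 60 min 36 members were higher (88.3% of all genes), and at 90 and 120 min all 37 (89.1% and 90.2%). Members had a median log2 fold change of 0.40, 1.10, 1.10 and 0.96 for release times of 40, 60, 90 and 120 min, beside 0.26, 0.79, 0.73 and 0.68 over all genes. In asynchronous cells 29 members were higher than in mitosis (70.4% of all genes), with a median of 0.40, and none was lower at any stage. The shares of members called at 60 min and later thus lay near those of all genes. The members' median change stood above that of the table on the log2(TPM + 1) scale. This scale understates the change of genes with low values, and members had higher values than the table. The median member went from 1.67 TPM in mitosis to 5.02 at 60 min in replicate 1, and from 1.2 to 3.11 in replicate 2. For the median gene of the table these were 0.906 to 2.82 and 0.83 to 2.05. How much of the gap comes from the scale was not tested. Leaving out a replicate leaves 1 library at each release time that held it, whose spread is then taken from the other groups. Here and below, counts with a replicate left out are given without the share of all genes. They show how far a count moved and do not compare members with other genes. Without replicate 1 the count at 40 min was 13, and without replicate 3 that of asynchronous cells was 19, while a fit without the replicate term called 11 at 40 min (23.8% of all genes) and 11 in asynchronous cells (46.7%). In bulk samples fewer transcribing cells and less pre-mRNA per cell cannot be told apart.

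In CTCF-AID cells without IAA most members were likewise higher from 40 min onwards. No member was called at 20 min (0% of genes; 4 members and 397 of 10237 genes at an unadjusted p under 0.05), 32 were higher at 40 min (63.3% of genes), 33 by 50 min (79.1%) and 35 by 60 min (84.8%), and the count was still 35 after 90 min (74.8%) and after 120 min (69.6%). Their median log2 fold change was 0.50, 0.98, 1.06, 0.76 and 0.64 for 40, 50, 60, 90 and 120 min, beside 0.34, 0.60, 0.63, 0.40 and 0.34 over all genes. Asynchronous cells had 11 members above mitosis (34.3% of genes), among them Tk1, Chaf1b, Rfc5 and Tyms, with a median of 0.14 against 0.12 for all genes. With IAA the course was alike in its counts: 0 members at 20 min (0% of genes; 2 members and 149 genes at an unadjusted p under 0.05), 32 higher at 40 min (58.7%), 33 by 50 min (78.2%), 33 by 60 min (82.2%), 34 after 90 min (73.8%), 35 after 120 min (68.2%) and 12 in asynchronous cells (40.9%). A single member was lower than in mitosis in any of these comparisons: Pola1 with IAA at 50 min, by a log2 fold change of −0.31 (SE 0.11, limma adjusted p = 0.0157), where 5.37% of all genes were lower. This call was lost without replicate 3, and without that replicate the counts of asynchronous cells were 2 without IAA and 7 with IAA. A fit without the replicate term did not call Pola1 lower with IAA, and it called 17 members higher at 40 min (43.5% of genes), 23 after 120 min (42.3%) and 2 in asynchronous cells (11.6%) without IAA, and 14 at 40 min (40% of genes) and 5 in asynchronous cells (17.3%) with IAA.

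**Figure D1:**
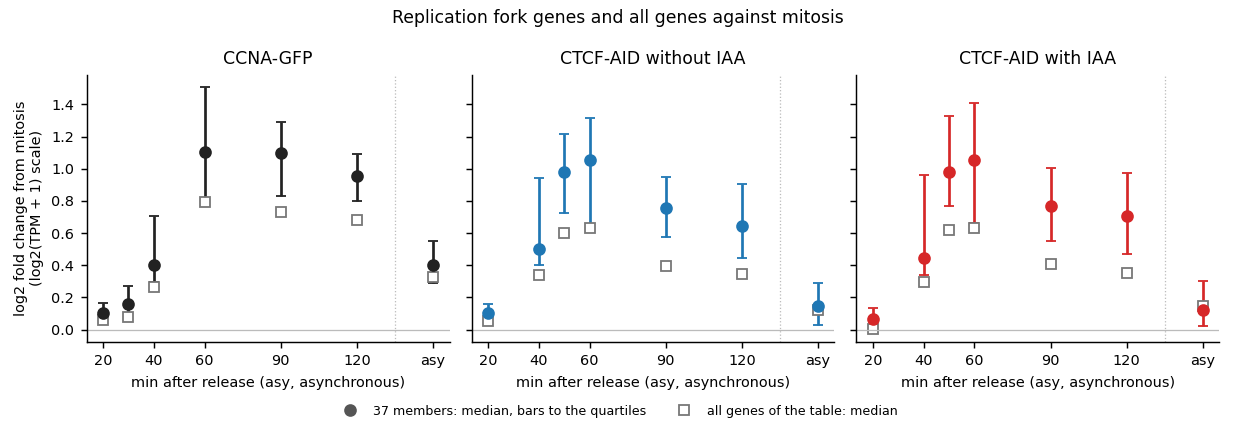
Log2 fold change from mitosis (vertical axis, log2(TPM + 1) scale) against min after release, with asynchronous cells (asy) to the right of the dotted line. Filled circles are the medians of the 37 members with bars to their quartiles and open squares the medians of all genes of the table. The members' median lies above that of all genes at 40 to 120 min in each panel, and at 60 min it is 1.10, 1.06 and 1.05 from left to right. This scale understates changes of genes with low values, and members had higher TPM than the table. With every library set to the same total the medians at 60 min are 0.23, 0.37 and 0.32.

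Since library sums rose together with the members, each change was also measured with all libraries set to the same total. The median of all genes at 60 min then moved from 0.79 to 0.02 in CCNA-GFP, from 0.63 to 0.06 without IAA and from 0.63 to 0.06 with IAA, and the members' median from 1.10 to 0.23, from 1.06 to 0.37 and from 1.05 to 0.32. On this relative scale 18 members were higher and 11 lower at 60 min in CCNA-GFP (36.4% and 33.3% of all genes), 22 higher and 6 lower without IAA (39.4% and 31.1%), and 22 higher and 8 lower with IAA (40.7% and 33.2%). Members called on this scale thus changed by more or by less than the bulk of genes. In CCNA-GFP it gave 12 higher and 8 lower at 40 min (23.7% and 31.3% of all genes), 17 and 6 at 90 min (31.8% and 26.2%), 13 and 5 at 120 min (28.7% and 23.5%), and 8 and 4 in asynchronous cells (24.8% and 20.3%). Without IAA it gave 15 and 8 at 40 min (33.3% and 36.7%), 23 and 6 at 50 min (40.7% and 33.6%), 25 and 2 at 90 min (34.5% and 25.6%), 22 and 2 at 120 min (32% and 25.9%), and 10 and 8 in asynchronous cells (27.2% and 21.4%). With IAA the counts were 15 and 7 at 40 min (33.2% and 38.6%), 20 and 6 at 50 min (41% and 35.5%), 25 and 4 at 90 min (36.8% and 27.4%), 24 and 2 at 120 min (33.5% and 28.7%), and 9 and 7 in asynchronous cells (29.8% and 22.4%). Fen1, Gins2, Pole3 and Chaf1b remained high, with 1.11, 1.04, 1.04 and 0.97 in CCNA-GFP. With the same total, the 11 that were lower in CCNA-GFP were Chaf1a, Gins1, Gins3, Pola1, Pole, Prim1, Prim2, Rfc1, Rfc5, Timeless and Tipin. In each library the values under 5 TPM were whole multiples of a step, within a tolerance of 0.05 steps. The step corresponds to TPM rounded at 0.01 times a factor of 2.17–3.81 in CCNA-GFP and 1.84–2.80 in CTCF-AID. The origin of this factor is not given in the sources used here. Dividing by this factor left 35, 35 and 33 members higher at 60 min in the 3 sets of libraries (79.7%, 84.7% and 79% of all genes), and moved those higher in asynchronous cells from 11 to 24 without IAA (66% of genes) and from 12 to 26 with IAA (67.1%).

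**Figure D2:**
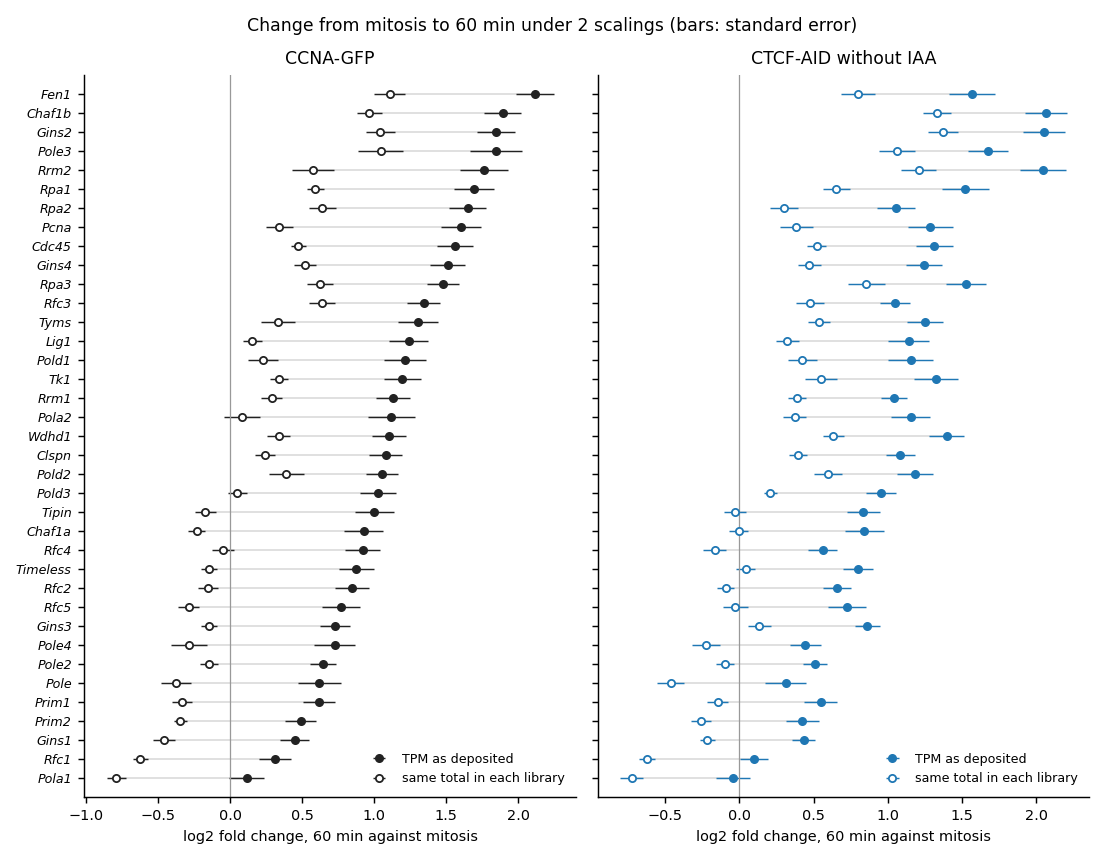
Log2 fold change of each member from mitosis to 60 min (horizontal axis) in CCNA-GFP and in CTCF-AID without IAA, as deposited (filled circles) and after setting library totals equal (open circles); bars are standard errors of the fit. Members are ordered by the CCNA-GFP value, from Pola1 at 0.11 to Fen1 at 2.12, and the open circles of 11 members in CCNA-GFP and 6 without IAA were called below 0.

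Polymerase alpha-primase, which starts each new strand with an RNA-DNA primer, was the group with the smallest median change at 40 and at 60 min in each set. None of its 4 genes was called at 40 min in CCNA-GFP, 3 of 4 were at 60 min (median log2 fold change 0.55) and all 4 at 90 min (0.96). Of all genes 49.3%, 88.3% and 89.1% were higher at these times. With the same total Pola1, Prim1 and Prim2 were lower at 60 min (33.3% of all genes). Pola2, the accessory B subunit, showed the largest increase. In CCNA-GFP cells Pola2 stood at 2.23, 1.53 and 2.84 TPM in mitosis, 2.38 and 1.63 at 20 min, 2.77 and 2.98 at 30 min, 3.0 and 2.06 at 40 min, 5.6 at 50 min, 6.54 and 4.03 at 60 min, 5.62 and 8.53 at 90 min, 4.73 and 5.35 at 120 min, and 2.47, 3.32 and 4.77 in asynchronous cells. Pola2 levels without IAA were 2.72, 1.93 and 3.42 TPM in mitosis, 2.97 and 1.87 at 20 min, 4.14 and 3.09 at 40 min, 6.09 and 7.1 at 50 min, 7.13 and 5.87 at 60 min, 4.82 and 7.24 at 90 min, 4.43 and 5.17 at 120 min, and 3.37, 2.91 and 4.26 in asynchronous cells. With IAA, Pola2 was at 2.73, 2.03 and 2.91 TPM in mitosis, 2.94 and 1.89 at 20 min, 3.87 and 2.61 at 40 min, 6.54 and 6.66 at 50 min, 6.61 and 5.37 at 60 min, 5.05 and 7.21 at 90 min, 4.57 and 5.62 at 120 min, and 3.64, 3.32 and 4.3 in asynchronous cells. Libraries at 60 min lay above all mitotic libraries in each set, by a log2 fold change of 1.12 in CCNA-GFP, 1.15 without IAA and 1.09 with IAA (limma adjusted p of 2.22e-06, 2.03e-08 and 4.57e-08). Pola1, the catalytic subunit, was not called at 60 min in any set. In CCNA-GFP cells Pola1 stood at 1.81, 1.46 and 2.36 TPM in mitosis, 1.85 and 1.45 at 20 min, 1.97 and 2.4 at 30 min, 1.81 and 1.46 at 40 min, 2.33 at 50 min, 2.36 and 1.31 at 60 min, 3.28 and 3.93 at 90 min, 3.85 and 3.0 at 120 min, and 2.76, 2.42 and 4.88 in asynchronous cells. Pola1 levels without IAA were 2.04, 2.15 and 3.08 TPM in mitosis, 2.36 and 2.04 at 20 min, 1.9 and 1.77 at 40 min, 2.05 and 2.05 at 50 min, 2.29 and 1.78 at 60 min, 2.8 and 4.32 at 90 min, 3.38 and 3.61 at 120 min, and 2.62, 2.37 and 4.02 in asynchronous cells. With IAA, Pola1 was at 2.6, 1.94 and 2.95 TPM in mitosis, 2.1 and 1.89 at 20 min, 1.87 and 1.63 at 40 min, 1.77 and 2.15 at 50 min, 1.91 and 1.77 at 60 min, 2.47 and 3.9 at 90 min, 2.47 and 3.7 at 120 min, and 2.74, 2.37 and 3.67 in asynchronous cells. The 60 min libraries overlapped the mitotic ones in CCNA-GFP and without IAA, and in all sets they lay below every asynchronous library. Its log2 fold change at 60 min was 0.11 in CCNA-GFP, −0.04 without IAA and −0.17 with IAA (limma adjusted p of 0.37, 0.724 and 0.179), and at 90 min it was higher than in mitosis by 0.54 in CCNA-GFP and 0.33 without IAA (limma adjusted p of 0.000248 and 0.0128), while with IAA the difference at 90 min was 0.17 and not called (limma adjusted p = 0.175). The primase subunits Prim1 and Prim2 were between, at 0.62 and 0.49 for the change to 60 min in CCNA-GFP. With IAA the 60 min libraries of Prim2 (2.41 and 2.24 TPM) overlapped its mitotic ones (2.34, 1.59 and 2.43 TPM). Within replicate 1 Prim2 was highest at 90 min in all 3 sets and Prim1 in CCNA-GFP and with IAA.

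Polymerases delta and epsilon, the replicative enzymes of the lagging and the leading strand, were mostly higher by 40 min on the deposited scale. Of their 7 genes 6 were higher at 40 min (49.3% of all genes) and all 7 at 60 min (88.3%) in CCNA-GFP. Their medians were 0.40 and 1.03, beside 0.26 and 0.79 over all genes. With the same total Pole was lower and Pole3 and Pold2 higher at 60 min in each set, and Pole4 lower in both CTCF-AID arms. Pole3, a histone-fold subunit of polymerase epsilon and the shortest member gene, had the largest increase. Introns make up 15.7% of Pole3, the smallest share of all members (median 74.0%). How well its value separates pre-mRNA from mature mRNA was not tested. In CCNA-GFP cells Pole3 stood at 0.383, 0.698 and 0.647 TPM in mitosis, 0.559 and 0.694 at 20 min, 1.18 and 1.01 at 30 min, 2.42 and 1.9 at 40 min, 4.15 at 50 min, 6.51 and 3.01 at 60 min, 3.79 and 4.37 at 90 min, 3.34 and 3.69 at 120 min, and 1.25, 1.68 and 1.86 in asynchronous cells. Pole3 levels without IAA were 0.935, 0.708 and 0.44 TPM in mitosis, 1.07 and 0.82 at 20 min, 3.29 and 3.21 at 40 min, 4.84 and 4.71 at 50 min, 4.3 and 4.36 at 60 min, 2.7 and 3.76 at 90 min, 2.12 and 3.16 at 120 min, and 1.17, 1.17 and 1.13 in asynchronous cells. With IAA, Pole3 was at 0.596, 0.539 and 0.586 TPM in mitosis, 0.701 and 0.741 at 20 min, 3.58 and 3.42 at 40 min, 3.83 and 4.42 at 50 min, 4.09 and 4.8 at 60 min, 3.24 and 5.1 at 90 min, 2.38 and 2.56 at 120 min, and 1.12, 1.58 and 1.16 in asynchronous cells. All libraries from 40 to 120 min lay above every mitotic library in each set. The log2 fold change of Pole3 at 60 min was 1.84 in CCNA-GFP, 1.67 without IAA and 1.80 with IAA (SE 0.18, 0.13 and 0.13). Pole encodes the catalytic subunit of the same enzyme and changed least. In CCNA-GFP cells Pole stood at 2.06, 1.73 and 2.42 TPM in mitosis, 2.24 and 1.65 at 20 min, 2.29 and 2.64 at 30 min, 2.26 and 1.78 at 40 min, 3.83 at 50 min, 4.26 and 2.51 at 60 min, 3.97 and 5.71 at 90 min, 3.38 and 3.0 at 120 min, and 1.77, 2.53 and 3.49 in asynchronous cells. Pole levels without IAA were 3.63, 2.64 and 4.19 TPM in mitosis, 3.75 and 2.55 at 20 min, 2.95 and 2.48 at 40 min, 3.67 and 4.97 at 50 min, 4.52 and 3.38 at 60 min, 3.44 and 6.48 at 90 min, 3.26 and 3.58 at 120 min, and 2.64, 2.48 and 4.09 in asynchronous cells. With IAA, Pole was at 3.79, 2.48 and 4.21 TPM in mitosis, 3.77 and 2.49 at 20 min, 3.07 and 2.41 at 40 min, 3.67 and 5.09 at 50 min, 3.77 and 3.42 at 60 min, 3.35 and 5.75 at 90 min, 2.92 and 4.08 at 120 min, and 2.81, 2.52 and 3.71 in asynchronous cells. The 60 min libraries lay above the mitotic ones in CCNA-GFP and overlapped them in both CTCF-AID arms, where the log2 fold changes were 0.31 without IAA (limma adjusted p = 0.0407) and 0.22 with IAA (limma adjusted p = 0.15). Among the others the catalytic subunit of polymerase delta, Pold1, rose by 1.21 in CCNA-GFP and 1.15 without IAA, its subunits Pold2 and Pold3 by 1.05 and 1.03 in CCNA-GFP, and the epsilon subunits Pole2 and Pole4 by 0.64 and 0.72.

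The clamp and its loader held large and small changes side by side. All 6 genes were higher at 60 min in CCNA-GFP (88.3% of all genes). In CTCF-AID 5 were higher in either arm (84.8% of all genes without and 82.2% with IAA). With the same total Rfc1 was lower in each set. PCNA forms the ring that tethers polymerases to DNA, and its pre-mRNA was the most abundant of the members at 60 min in CCNA-GFP. In CCNA-GFP cells Pcna stood at 7.94, 6.24 and 9.31 TPM in mitosis, 10.8 and 7.88 at 20 min, 13.4 and 10.9 at 30 min, 21.9 and 17.2 at 40 min, 28.9 at 50 min, 26.6 and 21.1 at 60 min, 15.8 and 19.8 at 90 min, 15 and 13.8 at 120 min, and 7.22, 5.97 and 9.56 in asynchronous cells. Pcna levels without IAA were 9.7, 5.17 and 6.81 TPM in mitosis, 13 and 7.01 at 20 min, 27.4 and 20.0 at 40 min, 25.6 and 22.3 at 50 min, 20.0 and 17.9 at 60 min, 12.1 and 11 at 90 min, 10.1 and 10.1 at 120 min, and 7.62, 5.32 and 6.47 in asynchronous cells. With IAA, Pcna was at 7.69, 6.01 and 6.08 TPM in mitosis, 10.5 and 6.4 at 20 min, 27 and 19.7 at 40 min, 30.1 and 25 at 50 min, 20.5 and 18.6 at 60 min, 12.9 and 10.9 at 90 min, 9.67 and 9.87 at 120 min, and 7.02, 6.94 and 5.51 in asynchronous cells. Libraries at 40 and 60 min lay above all mitotic and all asynchronous libraries in each set, and asynchronous libraries overlapped mitotic ones. Pcna rose by 1.33 at 40 min in CCNA-GFP, 1.58 without IAA and 1.65 with IAA (limma adjusted p of 3.99e-07, 5.58e-09 and 2.96e-09), and by 1.60 in CCNA-GFP, 1.29 without IAA and 1.42 with IAA at 60 min. Rfc1, the large subunit of the loader, changed least of the 6. In CCNA-GFP cells Rfc1 stood at 1.92, 1.49 and 2.14 TPM in mitosis, 1.92 and 1.52 at 20 min, 1.97 and 2.13 at 30 min, 1.78 and 1.43 at 40 min, 2.38 at 50 min, 2.85 and 1.8 at 60 min, 2.78 and 3.36 at 90 min, 2.79 and 2.53 at 120 min, and 2.29, 2.28 and 3.43 in asynchronous cells. Rfc1 levels without IAA were 2.81, 2.22 and 3.13 TPM in mitosis, 2.9 and 2.09 at 20 min, 2.27 and 1.91 at 40 min, 2.86 and 2.73 at 50 min, 3.15 and 2.39 at 60 min, 2.85 and 3.21 at 90 min, 2.67 and 2.63 at 120 min, and 2.62, 2.09 and 3.26 in asynchronous cells. With IAA, Rfc1 was at 2.85, 2.11 and 3.06 TPM in mitosis, 2.74 and 2.0 at 20 min, 2.42 and 1.86 at 40 min, 2.75 and 2.92 at 50 min, 2.88 and 2.36 at 60 min, 2.54 and 3.25 at 90 min, 2.16 and 2.73 at 120 min, and 2.54, 2.27 and 3.06 in asynchronous cells. Libraries at 60 min overlapped the mitotic and the asynchronous ones in each set. The log2 fold change at 60 min was 0.31 in CCNA-GFP, 0.10 without IAA and 0.07 with IAA, called in CCNA-GFP alone (limma adjusted p of 0.0134, 0.327 and 0.521), and with the same total it was −0.63, −0.62 and −0.66. The 4 small loader subunits were higher at 60 min in all 3 sets, Rfc3 most, with 1.35 in CCNA-GFP, 1.05 without IAA and 1.04 with IAA, while Rfc2, Rfc4 and Rfc5 were at 0.85, 0.92 and 0.77 in CCNA-GFP.

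**Figure D3:**
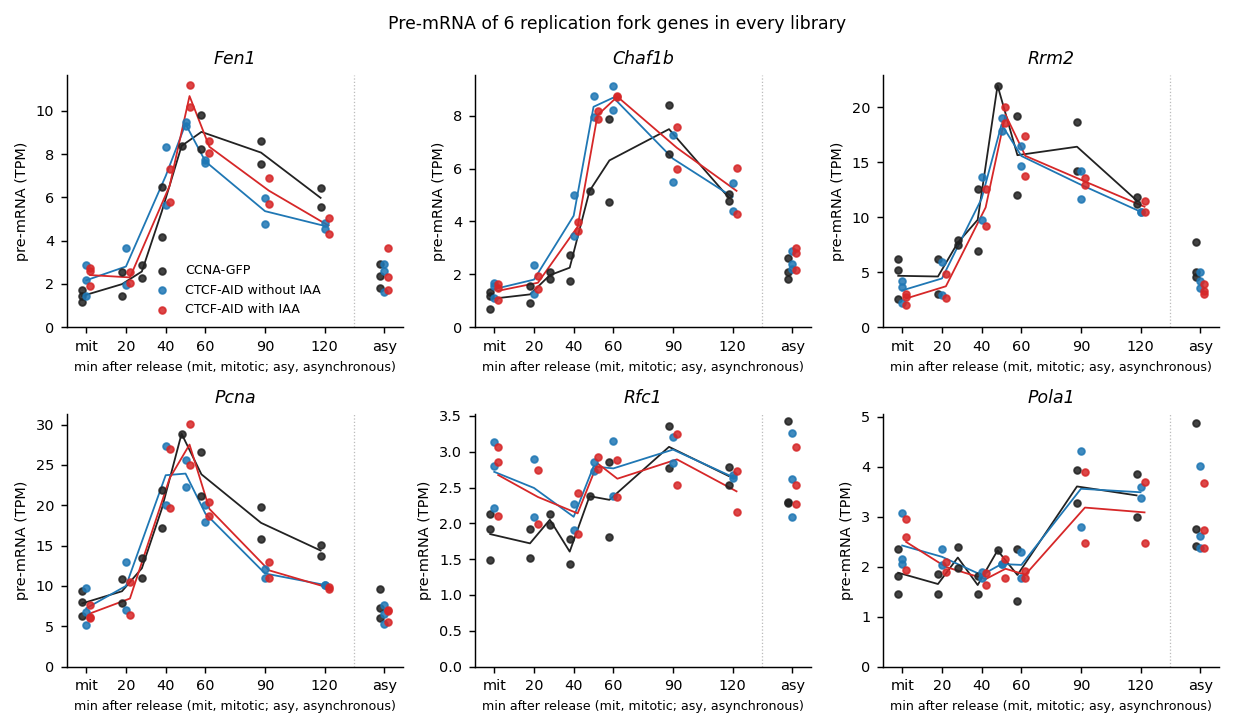
Pre-mRNA level in TPM (vertical axis, from 0) of 6 members in every library against min after release, with mitotic cells (mit) at the left and asynchronous cells (asy) right of the dotted line; points are libraries and lines join the means of each set. At 60 min Fen1, Chaf1b, Rrm2 and Pcna lay above every asynchronous library, Rfc1 changed little, and the 60 min libraries of Pola1 lay below all asynchronous ones.

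All 3 subunits of replication protein A were higher at 40 min (49.3–63.3% of all genes) and at 60 min (82.2–88.3%) in each set of libraries. With the same total they were higher at 60 min as well (36.4–40.7% of all genes). The median log2 fold change of the complex at 60 min was 1.65 in CCNA-GFP, 1.52 without IAA and 1.42 with IAA. Rpa1, the large DNA-binding subunit, had the largest increase in CCNA-GFP on the log2(TPM + 1) scale. In the ratio of stage means it did not lead. Mean TPM from mitosis to 60 min went from 2.61 to 9.29 for Rpa1, 1.64 to 6.55 for Rpa2 and 0.893 to 4.05 for Rpa3. In CCNA-GFP cells Rpa1 stood at 2.51, 1.79 and 3.54 TPM in mitosis, 3.07 and 2.0 at 20 min, 3.75 and 3.97 at 30 min, 4.2 and 2.73 at 40 min, 7.64 at 50 min, 11.7 and 6.86 at 60 min, 9.59 and 14 at 90 min, 7.71 and 6.76 at 120 min, and 3.77, 2.93 and 6.48 in asynchronous cells. Rpa1 levels without IAA were 5.44, 3.44 and 7.43 TPM in mitosis, 6.29 and 3.37 at 20 min, 8.05 and 5.55 at 40 min, 12.3 and 15.7 at 50 min, 15.3 and 13.1 at 60 min, 8.11 and 14.9 at 90 min, 7.32 and 7.16 at 120 min, and 5.19, 3.58 and 8.42 in asynchronous cells. With IAA, Rpa1 was at 5.64, 3.28 and 7.41 TPM in mitosis, 5.59 and 3.28 at 20 min, 6.67 and 5.08 at 40 min, 12.2 and 14.2 at 50 min, 14.1 and 12.1 at 60 min, 8.58 and 14.6 at 90 min, 6.33 and 8.0 at 120 min, and 5.04, 3.62 and 8.0 in asynchronous cells. Libraries at 40 min overlapped the mitotic ones and those at 60 and 90 min lay above them in each set, by 1.69 in CCNA-GFP, 1.52 without IAA and 1.42 with IAA at 60 min. Rpa3 is the smallest subunit. In CCNA-GFP cells Rpa3 stood at 0.766, 0.731 and 1.18 TPM in mitosis, 1.08 and 0.803 at 20 min, 1.46 and 1.25 at 30 min, 2.1 and 1.8 at 40 min, 3.17 at 50 min, 4.6 and 3.5 at 60 min, 3.39 and 4.29 at 90 min, 2.94 and 2.75 at 120 min, and 1.71, 1.75 and 1.98 in asynchronous cells. Rpa3 levels without IAA were 1.2, 0.928 and 1.27 TPM in mitosis, 1.64 and 0.797 at 20 min, 4.56 and 2.36 at 40 min, 5.07 and 6.63 at 50 min, 5.69 and 4.04 at 60 min, 3.86 and 5.13 at 90 min, 3.19 and 3.35 at 120 min, and 2.06, 1.67 and 1.62 in asynchronous cells. With IAA, Rpa3 was at 1.13, 0.882 and 1.37 TPM in mitosis, 1.4 and 0.943 at 20 min, 3.73 and 2.3 at 40 min, 5.07 and 6.17 at 50 min, 6.08 and 4.97 at 60 min, 4.94 and 5.85 at 90 min, 3.39 and 3.26 at 120 min, and 2.26, 1.73 and 2.18 in asynchronous cells. From 40 min on no library of Rpa3 overlapped the mitotic ones in any set, and the log2 fold change at 60 min was 1.48 in CCNA-GFP, 1.53 without IAA and 1.69 with IAA (limma adjusted p of 4.12e-10, 5.24e-10 and 8.66e-11). Rpa2, the middle subunit, rose by 1.65 in CCNA-GFP, 1.06 without IAA and 1.12 with IAA.

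GINS and Cdc45, which turn the loaded MCM ring into the active helicase, rose by amounts that ranged widely within the 4-subunit GINS complex. All 5 genes were higher at 60 min in each set, as were 88.3%, 84.8% and 82.2% of all genes. Their medians were 1.51, 1.24 and 1.34, beside 0.79, 0.63 and 0.63 over all genes. With the same total Gins1 was lower in all sets, Gins3 lower in CCNA-GFP, and Gins2, Gins4 and Cdc45 higher in all. In CCNA-GFP cells Gins2 stood at 0.732, 0.399 and 0.984 TPM in mitosis, 1.29 and 0.499 at 20 min, 1.75 and 1.68 at 30 min, 2.65 and 1.43 at 40 min, 6.13 at 50 min, 5.94 and 3.32 at 60 min, 3.93 and 6.2 at 90 min, 3.01 and 2.66 at 120 min, and 1.31, 0.806 and 1.89 in asynchronous cells. Gins2 levels without IAA were 1.39, 0.805 and 1.14 TPM in mitosis, 2.42 and 0.914 at 20 min, 5.5 and 3.51 at 40 min, 8.32 and 9.88 at 50 min, 7.49 and 6.65 at 60 min, 3.44 and 5.34 at 90 min, 2.94 and 2.82 at 120 min, and 1.49, 1.15 and 2.11 in asynchronous cells. With IAA, Gins2 was at 1.09, 0.662 and 1.13 TPM in mitosis, 1.56 and 0.988 at 20 min, 4.89 and 3.47 at 40 min, 8.49 and 8.6 at 50 min, 8.08 and 6.03 at 60 min, 4.25 and 5.38 at 90 min, 2.47 and 2.73 at 120 min, and 1.44, 1.08 and 2.16 in asynchronous cells. Its 40, 60 and 120 min libraries lay above all mitotic libraries and its 60 min libraries above all asynchronous ones in each set. The log2 fold change of Gins2 at 60 min was 1.85 in CCNA-GFP, 2.05 without IAA and 2.15 with IAA (limma adjusted p of 2.56e-10, 1.45e-11 and 5.09e-12). In CCNA-GFP cells Gins1 stood at 1.85, 1.2 and 2.0 TPM in mitosis, 1.99 and 1.32 at 20 min, 2.0 and 2.21 at 30 min, 2.1 and 1.53 at 40 min, 2.8 at 50 min, 2.74 and 2.05 at 60 min, 2.56 and 3.28 at 90 min, 2.42 and 2.13 at 120 min, and 1.8, 1.59 and 2.41 in asynchronous cells. Gins1 levels without IAA were 1.7, 1.37 and 1.68 TPM in mitosis, 1.83 and 1.36 at 20 min, 2.2 and 1.79 at 40 min, 2.49 and 2.42 at 50 min, 2.47 and 2.22 at 60 min, 2.15 and 2.42 at 90 min, 1.98 and 2.01 at 120 min, and 1.6, 1.35 and 1.83 in asynchronous cells. With IAA, Gins1 was at 1.64, 1.27 and 1.73 TPM in mitosis, 1.62 and 1.26 at 20 min, 2.05 and 1.86 at 40 min, 2.25 and 2.59 at 50 min, 2.25 and 2.04 at 60 min, 1.73 and 2.41 at 90 min, 1.83 and 2.09 at 120 min, and 1.44, 1.41 and 1.75 in asynchronous cells. Gins1 libraries at 60 min also lay above the mitotic ones, by 0.45 in CCNA-GFP, 0.43 without IAA and 0.36 with IAA. Gins3 and Gins4 rose by 0.73 and 1.51 in CCNA-GFP, and Cdc45 by 1.56 in CCNA-GFP, 1.31 without IAA and 1.34 with IAA.

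Fen1 and Lig1, which trim and seal lagging-strand fragments, were both higher at 40 min (49.3–63.3% of all genes) and at 60 min (82.2–88.3%) in each set. Fen1 was also higher at 60 min with the same total (36.4–40.7% of all genes). In CCNA-GFP cells Fen1 stood at 1.43, 1.16 and 1.74 TPM in mitosis, 2.55 and 1.43 at 20 min, 2.86 and 2.29 at 30 min, 6.49 and 4.19 at 40 min, 8.38 at 50 min, 9.82 and 8.24 at 60 min, 7.53 and 8.61 at 90 min, 6.42 and 5.54 at 120 min, and 2.35, 1.82 and 2.94 in asynchronous cells. Fen1 levels without IAA were 2.87, 1.46 and 2.17 TPM in mitosis, 3.67 and 1.94 at 20 min, 8.33 and 5.64 at 40 min, 9.48 and 9.31 at 50 min, 7.58 and 7.74 at 60 min, 4.75 and 5.98 at 90 min, 4.84 and 4.53 at 120 min, and 2.6, 1.65 and 2.91 in asynchronous cells. With IAA, Fen1 was at 2.6, 1.89 and 2.75 TPM in mitosis, 2.54 and 2.06 at 20 min, 7.31 and 5.77 at 40 min, 11.2 and 10.2 at 50 min, 8.63 and 8.05 at 60 min, 5.71 and 6.91 at 90 min, 4.32 and 5.07 at 120 min, and 2.3, 1.73 and 3.65 in asynchronous cells. Libraries of Fen1 at 40 and at 60 min lay above all mitotic and all asynchronous libraries in each set. In CCNA-GFP Fen1 rose by 1.44 within 40 min and by 2.12 within 60 min (SE 0.13, limma adjusted p = 1.07e-10). On the log2(TPM + 1) scale these were the largest values of all members at both times. In the ratio of stage means at 60 min, Pole3 (0.576 to 4.76 TPM) and Gins2 (0.705 to 4.63) rose more than Fen1 (1.44 to 9.03). The change of Fen1 at 60 min was 1.57 without and 1.55 with IAA. In CCNA-GFP cells Lig1 stood at 2.65, 1.89 and 3.15 TPM in mitosis, 3.14 and 2.04 at 20 min, 3.47 and 3.57 at 30 min, 3.68 and 2.59 at 40 min, 6.29 at 50 min, 8.75 and 4.88 at 60 min, 7.64 and 10.0 at 90 min, 5.69 and 4.88 at 120 min, and 3.16, 3.09 and 4.91 in asynchronous cells. Lig1 levels without IAA were 3.37, 2.81 and 3.62 TPM in mitosis, 3.84 and 2.81 at 20 min, 5.02 and 3.83 at 40 min, 7.42 and 8.06 at 50 min, 8.16 and 7.5 at 60 min, 5.28 and 8.34 at 90 min, 4.56 and 5.62 at 120 min, and 2.79, 3.04 and 3.75 in asynchronous cells. With IAA, Lig1 was at 3.28, 2.7 and 3.47 TPM in mitosis, 3.57 and 2.78 at 20 min, 4.02 and 3.8 at 40 min, 7.32 and 7.62 at 50 min, 7.88 and 7.31 at 60 min, 5.84 and 8.17 at 90 min, 4.3 and 6.46 at 120 min, and 3.01, 2.91 and 3.65 in asynchronous cells. Lig1 libraries at 60 min lay above the mitotic ones in each set, by 1.24 in CCNA-GFP, 1.14 without IAA and 1.14 with IAA, and with the same total the change was 0.15, 0.32 and 0.32, called in the CTCF-AID arms.

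The 4 enzymes of nucleotide supply were higher at 40 min (49.3–63.3% of all genes) and at 60 min (82.2–88.3%) in each set. They were also higher at 60 min with the same total (36.4–40.7% of all genes). Rrm2 encodes the small, cell-cycle-regulated subunit of ribonucleotide reductase. In CCNA-GFP cells Rrm2 stood at 5.19, 2.59 and 6.24 TPM in mitosis, 6.18 and 3.04 at 20 min, 7.47 and 7.91 at 30 min, 12.6 and 6.94 at 40 min, 22 at 50 min, 19.2 and 12.1 at 60 min, 14.2 and 18.6 at 90 min, 11.9 and 11.2 at 120 min, and 5.05, 4.58 and 7.7 in asynchronous cells. Rrm2 levels without IAA were 3.68, 2.17 and 4.19 TPM in mitosis, 5.94 and 2.93 at 20 min, 13.7 and 9.74 at 40 min, 17.8 and 19.1 at 50 min, 16.4 and 14.7 at 60 min, 11.7 and 14.2 at 90 min, 10.5 and 10.5 at 120 min, and 4.16, 3.58 and 4.98 in asynchronous cells. With IAA, Rrm2 was at 3.07, 2.01 and 2.77 TPM in mitosis, 4.8 and 2.65 at 20 min, 12.5 and 9.23 at 40 min, 20.1 and 18.6 at 50 min, 17.4 and 13.7 at 60 min, 12.9 and 13.6 at 90 min, 10.5 and 11.4 at 120 min, and 2.99, 3.28 and 3.89 in asynchronous cells. Libraries at 40 to 120 min lay above all mitotic ones, and the log2 fold change at 60 min was 1.76 in CCNA-GFP, 2.04 without IAA and 2.29 with IAA (limma adjusted p of 5.06e-09, 4.2e-11 and 6.68e-12). Rrm1, the large subunit, was at lower levels. In CCNA-GFP cells Rrm1 stood at 1.11, 0.631 and 1.18 TPM in mitosis, 1.36 and 0.738 at 20 min, 1.4 and 1.33 at 30 min, 2.0 and 1.2 at 40 min, 3.33 at 50 min, 4.0 and 2.23 at 60 min, 3.42 and 3.8 at 90 min, 2.83 and 2.5 at 120 min, and 1.65, 1.47 and 2.44 in asynchronous cells. Rrm1 levels without IAA were 1.33, 1.05 and 1.35 TPM in mitosis, 1.57 and 1.08 at 20 min, 2.88 and 1.82 at 40 min, 3.67 and 3.51 at 50 min, 3.71 and 3.29 at 60 min, 2.85 and 3.34 at 90 min, 2.44 and 2.54 at 120 min, and 1.67, 1.41 and 1.79 in asynchronous cells. With IAA, Rrm1 was at 1.21, 1.08 and 1.19 TPM in mitosis, 1.31 and 1.03 at 20 min, 2.38 and 2.03 at 40 min, 3.72 and 3.51 at 50 min, 3.45 and 3.3 at 60 min, 2.88 and 3.11 at 90 min, 2.49 and 2.68 at 120 min, and 1.4, 1.5 and 1.73 in asynchronous cells. The 40 and 60 min libraries of Rrm1 again lay above the mitotic ones, by 1.13 in CCNA-GFP, 1.04 without IAA and 1.05 with IAA at 60 min. Thymidylate synthase (Tyms) rose by 1.31 and thymidine kinase (Tk1) by 1.20 in CCNA-GFP, and Tk1 was the member with the largest difference between asynchronous and mitotic cells (1.11, 1.04 and 1.18).

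Wdhd1, Timeless, Tipin and Claspin (Clspn), which couple the helicase to polymerases and to checkpoint signalling, were all higher at 40 and at 60 min in each set. Of all genes 49.3–63.3% were higher at 40 min and 82.2–88.3% at 60 min. The group's median at 60 min in CCNA-GFP was 1.04, beside 0.79 over all genes. With the same total Wdhd1 and Clspn were higher in each set and Timeless and Tipin lower in CCNA-GFP. In CCNA-GFP cells Wdhd1 stood at 0.697, 0.598 and 0.843 TPM in mitosis, 0.908 and 0.608 at 20 min, 1.05 and 0.959 at 30 min, 1.23 and 0.833 at 40 min, 2.01 at 50 min, 3.16 and 1.98 at 60 min, 2.96 and 3.91 at 90 min, 2.5 and 2.28 at 120 min, and 0.841, 1.04 and 1.16 in asynchronous cells. Wdhd1 levels without IAA were 2.26, 1.73 and 2.25 TPM in mitosis, 2.88 and 1.76 at 20 min, 4.01 and 2.8 at 40 min, 6.02 and 7.07 at 50 min, 6.97 and 6.21 at 60 min, 5.65 and 8.74 at 90 min, 5.16 and 5.81 at 120 min, and 2.08, 2.02 and 2.66 in asynchronous cells. With IAA, Wdhd1 was at 2.07, 1.64 and 2.34 TPM in mitosis, 2.3 and 1.77 at 20 min, 2.91 and 2.76 at 40 min, 5.6 and 6.12 at 50 min, 6.67 and 6.28 at 60 min, 6.04 and 8.14 at 90 min, 5.26 and 6.11 at 120 min, and 2.03, 2.1 and 2.6 in asynchronous cells. All libraries of Wdhd1 at 60, 90 and 120 min lay above the mitotic and the asynchronous ones, by 1.10 in CCNA-GFP, 1.40 without IAA and 1.41 with IAA at 60 min against mitosis. In CCNA-GFP cells Timeless stood at 2.19, 1.66 and 2.56 TPM in mitosis, 2.41 and 1.82 at 20 min, 2.73 and 2.85 at 30 min, 2.94 and 2.34 at 40 min, 4.84 at 50 min, 5.02 and 3.57 at 60 min, 4.79 and 6.34 at 90 min, 4.33 and 3.94 at 120 min, and 2.44, 2.42 and 4.01 in asynchronous cells. Timeless levels without IAA were 2.59, 2.07 and 2.77 TPM in mitosis, 2.58 and 1.87 at 20 min, 3.97 and 2.94 at 40 min, 4.5 and 6.19 at 50 min, 4.99 and 4.07 at 60 min, 4.1 and 6.48 at 90 min, 3.72 and 3.97 at 120 min, and 2.21, 2.17 and 3.4 in asynchronous cells. With IAA, Timeless was at 2.55, 1.79 and 2.77 TPM in mitosis, 2.39 and 1.98 at 20 min, 3.45 and 2.83 at 40 min, 4.8 and 5.84 at 50 min, 4.72 and 4.06 at 60 min, 4.09 and 6.1 at 90 min, 3.92 and 4.22 at 120 min, and 2.4, 2.14 and 3.21 in asynchronous cells. At 60 min Timeless libraries lay above the mitotic ones in each set, by 0.87 in CCNA-GFP, 0.80 without IAA and 0.82 with IAA, and overlapped the asynchronous ones in CCNA-GFP. Tipin, the partner of Timeless, rose by 1.00 and Clspn by 1.08 in CCNA-GFP.

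Both large subunits of CAF-1, the chaperone that deposits histones H3 and H4 on new DNA, were higher from 40 to 120 min on the deposited scale. The larger values were those of Chaf1b. Over these times 49.3–90.2% of all genes were higher in CCNA-GFP, 63.3–84.8% without IAA and 58.7–82.2% with IAA. In CCNA-GFP cells Chaf1b stood at 1.18, 0.698 and 1.32 TPM in mitosis, 1.57 and 0.911 at 20 min, 2.1 and 1.84 at 30 min, 2.74 and 1.76 at 40 min, 5.15 at 50 min, 7.88 and 4.74 at 60 min, 6.56 and 8.42 at 90 min, 5.03 and 4.79 at 120 min, and 2.09, 1.82 and 2.62 in asynchronous cells. Chaf1b levels without IAA were 1.67, 1.1 and 1.55 TPM in mitosis, 2.36 and 1.24 at 20 min, 5.0 and 3.44 at 40 min, 7.93 and 8.74 at 50 min, 9.13 and 8.23 at 60 min, 5.48 and 7.27 at 90 min, 4.4 and 5.45 at 120 min, and 2.38, 2.19 and 2.87 in asynchronous cells. With IAA, Chaf1b was at 1.62, 1.03 and 1.49 TPM in mitosis, 1.93 and 1.44 at 20 min, 3.98 and 3.62 at 40 min, 7.87 and 8.16 at 50 min, 8.74 and 8.69 at 60 min, 6.0 and 7.56 at 90 min, 4.3 and 6.01 at 120 min, and 2.81, 2.18 and 2.99 in asynchronous cells. Libraries at 40 to 120 min lay above all mitotic ones, and those at 60 min above all asynchronous ones, in each set. Chaf1b rose by 1.89 in CCNA-GFP, 2.06 without IAA and 2.11 with IAA at 60 min (SE 0.13, 0.14 and 0.14). On the log2(TPM + 1) scale its value without IAA was the largest of all members, close to that of Gins2 (2.05). With IAA the largest was that of Rrm2 (2.29). In CCNA-GFP cells Chaf1a stood at 4.04, 3.35 and 4.81 TPM in mitosis, 4.51 and 3.75 at 20 min, 5.18 and 5.17 at 30 min, 5.87 and 4.47 at 40 min, 8.99 at 50 min, 9.89 and 6.01 at 60 min, 8.76 and 10.9 at 90 min, 8.37 and 7.13 at 120 min, and 3.97, 3.52 and 6.31 in asynchronous cells. Chaf1a levels without IAA were 4.83, 3.71 and 5.18 TPM in mitosis, 5.26 and 3.75 at 20 min, 6.52 and 5.18 at 40 min, 8.69 and 8.79 at 50 min, 8.93 and 7.6 at 60 min, 7.06 and 9.77 at 90 min, 6.59 and 7.6 at 120 min, and 4.31, 3.24 and 5.49 in asynchronous cells. With IAA, Chaf1a was at 4.58, 3.7 and 4.86 TPM in mitosis, 4.78 and 3.75 at 20 min, 6.18 and 5.12 at 40 min, 8.42 and 9.07 at 50 min, 7.65 and 7.29 at 60 min, 6.74 and 9.05 at 90 min, 6.01 and 8.32 at 120 min, and 4.23, 3.62 and 5.14 in asynchronous cells. The 60 min libraries of Chaf1a lay above the mitotic ones in each set, by 0.93 in CCNA-GFP, 0.84 without IAA and 0.76 with IAA, while with the same total the change was −0.23, −0.0048 and −0.08, called lower in CCNA-GFP.

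The stage of the highest level was read within replicate 1, since means of different stages hold different replicates. Replicate 1 of CCNA-GFP has no 50 min library, so a highest level at 50 min could not be seen there. Its counts thus cannot be set against those of the CTCF-AID arms. In CCNA-GFP 31 members were highest at 60 min, 5 at 90 min (Prim1, Prim2, Gins3, Tk1 and Tipin) and Pola1 at 120 min, beside 71.6%, 12.4% and 10.9% of the 6776 genes that averaged 1 TPM or more over these libraries. Without IAA 15 members were highest at 50 min and 19 at 60 min, beside 39% and 38% of 7517 genes, while Pcna was highest at 40, Prim2 at 90 and Pola1 at 120 min. With IAA 22 were highest at 50 min, 9 at 60 min and 4 after 90 min (Prim1, Prim2, Tk1 and Tipin), beside 50.0%, 25.7% and 6.37% of 7459 genes, with Pole highest in mitosis and Pola1 in asynchronous cells. Each value is a single library with no replicate check. The counts depend on this choice: over stage means 11, 3 and 23 members of CCNA-GFP were highest for 50, 60 and 90 min, and 25, 4 and 8 in either CTCF-AID arm.

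The highest post-mitotic level within replicate 1 exceeded the asynchronous level 5.22-fold for Pole3, 4.55-fold for Gins2, 4.24-fold for Cdc45 and 4.18-fold for Fen1 in CCNA-GFP, and 1.16-fold for Rfc5, the smallest ratio there. Without IAA Gins2 led with 5.6-fold, followed by Rrm2 with 4.27-fold, and with IAA Rrm2 led with 6.71-fold before Gins2 with 5.91-fold, while Pola1 was at 0.904-fold. In the same replicate of CCNA-GFP 7 members first matched or passed their asynchronous level at 20 min (18.9%, beside 12.5% of all those genes). A further 6 did so at 30 min (16.2%, beside 14.7%), 9 at 40 min (24.3%, beside 20.5%), 8 by 60 min (21.6%, beside 31.8%) and Pola1 after 90 min. In 6 the asynchronous level was below the mitotic one (16.2%, beside 14.1%). Without IAA 5 members were there by 20 min (13.5%, beside 20.0% of genes), a further 12 by 40 min (32.4%, beside 26.7%), Prim2 and Tk1 by 50 min (5.41%, beside 9.03%) and Pola1 by 90 min, with 17 of them lower in asynchronous than in mitotic cells (45.9%, beside 34.4% of genes). With IAA 4 had matched it by 20 min (10.8%, beside 5.78% of genes), 14 more by 40 min (37.8%, beside 34.7%), Pole4 by 50 min (2.7%, beside 14%) and Prim2 and Tk1 by 60 min, Pola1 did not get there, and 15 were lower in asynchronous cells (40.5%, beside 34.3%). Over stage means the ratios ranked otherwise. The highest post-mitotic level in CCNA-GFP then exceeded the asynchronous one most for Gins2 (4.6-fold) and least for Pola1 (1.08-fold). Pole3 was at 2.98-fold there, and with IAA Pola1 was at 1.09-fold. These values carry no test.

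Between 60 and 120 min members moved in both directions. In CCNA-GFP 9 members fell (28.5% of all genes were lower) and 4 rose (9.6% higher). Those that fell were Pcna (−0.68, SE 0.15, limma adjusted p = 0.00132), Rpa2 (−0.62), Gins4, Fen1, Gins2, Clspn, Rfc3, Rpa3 and Cdc45. The 4 that rose were Pola1 (0.66, limma adjusted p = 0.000518), Prim2 (0.38), Tk1 (0.36) and Prim1 (0.34), which include 3 of the 4 polymerase alpha-primase genes. Both times hold replicates 1 and 2, so a fit without either sets 1 library against 1 and borrows its error from other stages. Without replicate 1 no member was called lower and without replicate 2 there were 16, and the count of those that rose was 1 without replicate 2 and 2 without replicate 3. Dividing by the library factor left 3 members lower and 2 higher (13.9% and 7.41% of all genes), and a fit without the replicate term called 0 and 0 (12.1% and 1.79%), so these calls rest on the scaling and on the replicate term. In CTCF-AID without IAA 21 members fell (53.1% of genes), led by Gins2 (−1.05), Rpa1 (−0.88) and Pcna (−0.84), and of the members Pola1 alone rose (0.57, limma adjusted p = 0.000475; 7.31% of genes). Without replicate 1 there were 13 that fell in this arm, without the replicate term 10 (33.2% of genes), and without replicate 2 none that rose. With the same total, 9 members were higher and 8 lower in CCNA-GFP (24.4% and 21.7% of all genes) and 8 higher and 6 lower without IAA (25.6% and 26.5%), and Pola1 was among the higher and Pcna and Gins2 among the lower in both. The fall of Gins2 rested on libraries that did not overlap in either line, as shown above. At 120 min members still stood above asynchronous cells, 30 of 37 in CCNA-GFP (63.4% of genes) with a median of 0.55, and 33 of 37 without IAA (51% of genes) with a median of 0.52, beside medians of 0.35 and 0.23 over all genes. With the same total 15 were higher and 5 lower than in asynchronous cells in CCNA-GFP (26.8% and 24.9%), and 21 higher and 1 lower without IAA (26.9% and 27.7%). Dividing by the library factor left 13 higher in CCNA-GFP (29.1% of genes) and 16 without IAA (20.9%), and a fit without the replicate term called 14 (35.6%) and 15 (23.9%). On the deposited scale Pole4, Rfc1 and Rfc4 were not called in either line, and without replicate 2 the count was 20 in the arm without IAA.

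Gene length went with the size of the early change. Across the 37 members, Spearman's rho between gene length and the change from mitosis in CCNA-GFP was −0.65, −0.56 and −0.39 for 40, 60 and 90 min, and over all genes with a length it was −0.54, −0.37 and −0.25. Without IAA the values were −0.69, −0.56 and −0.46 for the members and −0.59, −0.37 and −0.28 for all genes. These are correlations across genes of the same libraries, so genes are not independent replicates, and no test was made. The 9 shortest members (2.42–10.6 kb: Tk1, Rpa2, Rfc3, Pold2, Rrm2, Fen1, Pcna, Rpa3 and Pole3) had a median log2 fold change of 1.04 at 40 and 1.60 at 60 min in CCNA-GFP. For the 9 longest (35.9–327 kb: Pola1, Prim2, Pole4, Rfc1, Pole, Rpa1, Pold3, Clspn and Wdhd1) these medians were 0.30 and 0.72. Rpa1, among the longest, was an exception with 1.69 at 60 min, and Gins1, at 0.45, was low without being among the longest. At 90 min the medians were 1.29 and 0.83, and the longest member, Pola1, had reached 0.54. Introns made up from 15.7% of the gene in Pole3 to 97.3% in Pola1. Of the members 12 overlap another annotated gene on the same strand and 18 a gene on the opposite strand, and the share of reads from those genes was not tested.

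**Figure D4:**
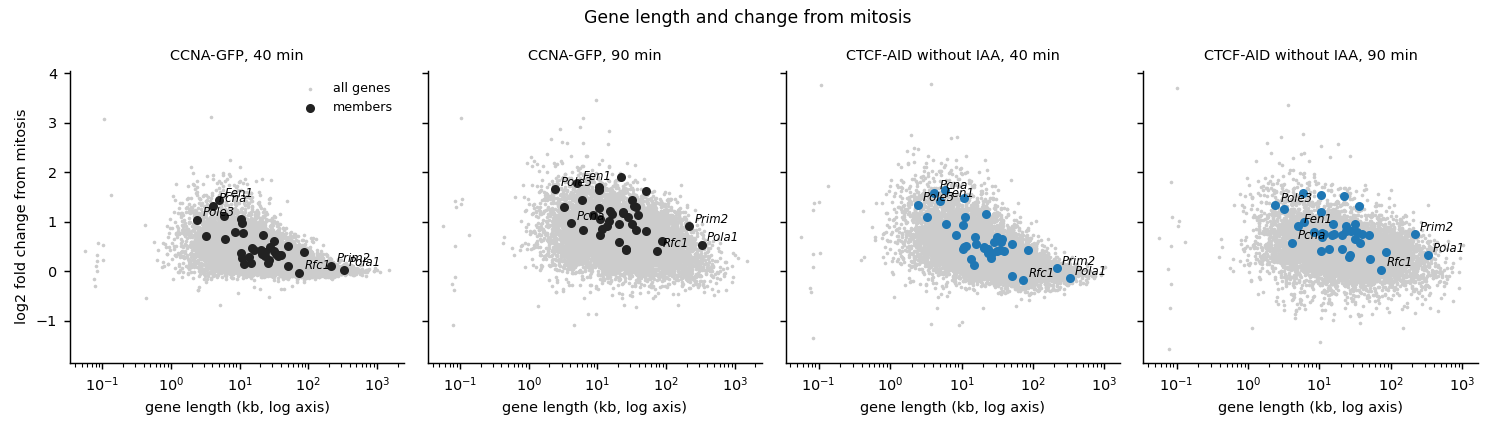
Log2 fold change from mitosis (vertical axis) against gene length in kb (log axis) at 40 and 90 min, for all genes (grey) and the 37 members (filled circles), in CCNA-GFP and CTCF-AID without IAA. At 40 min the longest genes lie near 0 in both lines, with Pola1 at 0.03 and −0.14, and at 90 min they lie higher.

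With IAA against without IAA, no member was called by limma (adjusted p under 0.1 and an absolute log2 fold change over 0.2) in asynchronous cells (1.01% of all genes called in either direction), in mitosis (0%), at 20 or at 40 min (0% and 0%), at 50 or at 60 min (0.283% and 0.225%), or at 90 or at 120 min (0.733% and 0.586%). In this fit, which has no replicate term, no member had an unadjusted p under 0.05 at any of the 8 stages. For the rise from mitosis to 60 min no member was called as different between the arms (0 members and 0% of all genes in the interaction test, and no member at an unadjusted p under 0.05). The members' median difference was −0.01 in asynchronous cells and −0.04 in mitosis, and ran from −0.08 at 20 and 40 min to 0.01 at 90 min, beside 0.01, −0.01, −0.06 (20 min), −0.05 (40 min) and −0.01 over all genes. With the same total the members' medians were 0.00089 at 20 min and −0.02 at 40 min. Single differences ran from −0.32 (SE 0.23) for Rfc5 in asynchronous cells to 0.28 (SE 0.16) for Pole3 at 90 min. With the replicate number as a term, which compares the arms within a release series, again no member was called, while the share of all genes called was 2.43% in asynchronous cells, 0% in mitosis and 0% in the 20 min libraries, 0.0195% and 0.987% by 40 and 50 min, 1.01% by 60 min, 1.71% and 1.43% after 90 and 120 min and 0.215% in the interaction test. In asynchronous cells 3 members (8.11%, near the 6.19% of all genes) then had an unadjusted p under 0.05: Rfc5 (−0.32, SE 0.11, unadjusted p = 0.0095, limma adjusted p = 0.282), Rfc3 (−0.20, SE 0.09, unadjusted p = 0.031, limma adjusted p = 0.639) and Gins4 (0.24, SE 0.11, unadjusted p = 0.03, limma adjusted p = 0.628). Rfc5 was lower with IAA by 0.31, 0.33 and 0.32 in the 3 asynchronous pairs of the same number. Rfc3 differed by −0.24, −0.19 and −0.18 in these pairs, and Gins4 was higher with IAA by 0.19, 0.24 and 0.31. The fit used these same values, so they add no separate support. How many of all genes kept 1 direction in these pairs was not counted. A missing call does not show that the arms were alike. CTCF protein was not measured in these files.

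Rfc3, singled out after its values were seen, had the lower mean with IAA at all 8 stages. In asynchronous cells it was at 0.948, 1.02 and 1.06 TPM without and 0.649, 0.771 and 0.811 TPM with IAA, in mitosis at 1.07, 0.635 and 0.777 and 0.532, 0.588 and 0.721, and at 20 min at 1.24 and 0.726 and 0.832 and 0.539. At 40 min it was at 2.44 and 1.55 without and 1.62 and 1.28 with IAA, at 50 min at 3.04 and 2.86 and 2.78 and 2.73, and at 60 min at 2.86 and 2.51 and 2.27 and 2.22. At 90 min the levels were 1.99 and 2.58 without and 1.6 and 1.83 with IAA, and at 120 min 1.83 and 1.62 and 1.54 and 1.52. The arms overlapped in mitosis, at 20 min and at 40 min and did not overlap at the other stages. Each release time holds 2 libraries an arm, and how often arms did not overlap over all genes was not counted. Between libraries of the same number, Rfc3 was lower with IAA in 18 of 18 pairs, as were 0.938% of all genes. These pairs come from 3 release series and restate the pattern for which it was singled out. The log2 difference was −0.20 (SE 0.11) in asynchronous cells, −0.28 (SE 0.14) at 40 min and −0.27 (SE 0.14) at 90 min, with unadjusted p of 0.079, 0.055 and 0.058 by limma, and none was called. With the replicate term the unadjusted p for 20, 40 and 90 min was 0.047, 0.019 and 0.02, and the limma adjusted p 0.968, 0.999 and 0.632. Its RefSeq window holds E2F words and a CCAAT box and no CTCF core.

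**Figure D5:**
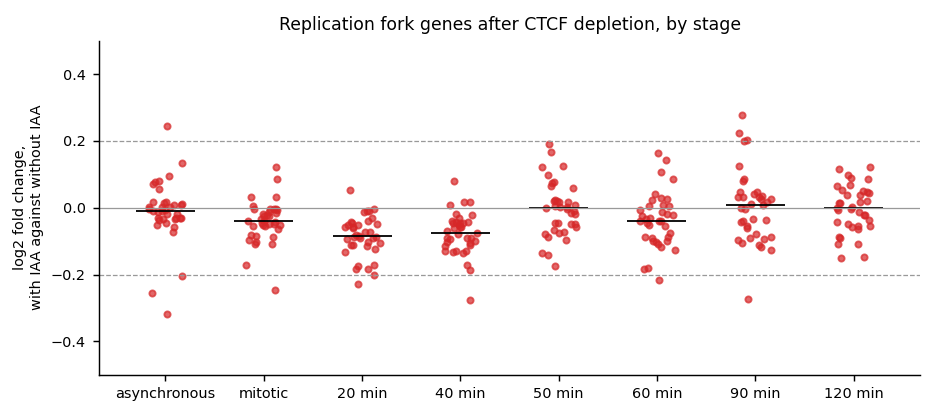
Log2 fold change with IAA against without IAA (vertical axis) of each of the 37 members (points) at each stage (horizontal axis); black bars are medians and dashed lines mark the limits of 0.2 in either direction. Points lie between −0.32 and 0.28, and no member was called at any stage.

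Other genes of the pathway are given by counts. Of 37 listed genes with other tasks at the fork, such as helicase activation, RNA primer removal, topology and maintenance methylation, 24 were higher at 40 min in CCNA-GFP (49.3% of all genes) and 36 by 60 min (88.3%), with a median log2 fold change of 1.16. In CTCF-AID 35 were higher at 60 min without (84.8% of all genes) and 36 with IAA (82.2%), with medians of 0.94 and 0.95. Of 18 licensing genes, which load the MCM helicase on origins before replication, 15 were higher at 40 min in CCNA-GFP and 18 by 60 min, against the same shares of all genes, with a median of 1.42, and 17 in each CTCF-AID arm, with medians of 1.10 and 1.11. The members' own medians at 60 min, 1.10, 1.06 and 1.05, thus lay near those of the other fork genes, and no difference between these lists was tested. From 60 to 120 min in CCNA-GFP 12 of the other fork genes and 9 of the licensing genes were lower, and 0 and 1 were higher (28.5% and 9.6% of all genes). Without the replicate term 11 and 6 were higher at 40 min (23.8% of genes), and from 60 to 120 min 5 and 1 were lower (12.1%). Division by the library factor left 6 and 1 lower from 60 to 120 min (13.9% of genes) and 0 and 1 higher (7.41%).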

How the data were processed

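Total RNA of 55 samples was turned into ribo-depleted, stranded, paired-end libraries and sequenced by a company (Novogene) for the authors. According to the submitters' notes, reads were aligned to mm10 with STAR and quantified with RSEM, and per the study's methods the transcripts (Gencode vM12) were complemented with a pre-mRNA isoform per gene. The deposited values are TPM of that isoform, made by the authors for genes with a mean over 0.5 TPM in asynchronous or in several post-mitotic samples. Read depth is thus unknown, and no count test was possible. A further factor in each library's values has no origin in the sources used here.

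The 37 members were taken by symbol from both tables. Members, gene lists and tests were chosen with earlier results of these data known. Values were transformed as log2(TPM + 1) and fitted over all genes of a table with limma 3.58.1 (R 4.3.3, trend on the mean), with Benjamini-Hochberg adjustment over all genes. Stage comparisons had the replicate number as a term and were called at an adjusted p under 0.05. Comparisons with against without IAA, and their interaction with stage, had no such term and were called at an adjusted p under 0.1 and, for the former, an absolute log2 fold change over 0.2. Per the study's methods, replicates were independent and 1 of them was sequenced in full. The others were sequenced at alternating times with their own mitotic and asynchronous cells. Among the libraries used here replicate 1 has no 50 min library in CCNA-GFP. Each number was read as 1 release series, so the numbers pair libraries. As a check, deviations from the group means correlated above 0.1 in 44 of 49 same-numbered pairs of CCNA-GFP and 197 of 214 of CTCF-AID, and 17 of 18 and 36 of 36 libraries correlated best with their own number. The 50 min library of CCNA-GFP, a lone replicate, entered no test. Values of the lines were deposited apart, and lines were not tested against each other. The scripts were tested on simulated data.

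In each role group, the members with the largest and the smallest change to 60 min in CCNA-GFP were given with every library. So were members not called at 60 min in CCNA-GFP or in CTCF-AID without IAA. Gene positions came from Gencode vM21 (GRCm38) and sequences from RefSeq (GRCm38.p6). Alternatives were a pseudocount of 0.1, a filter that kept only means from 1 TPM upwards, the same total in each library, division by the library factor (added after the data were seen), stages compared within replicate 1 alone (likewise added), fits without or with the replicate term, and each replicate left out.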

Additional observations from a re-analysis of the deposited data

How the results depend on the processing

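The changes of named members to 60 min held their direction in most alternatives, with 18 of 432 values reversed. Of 472 counts of called members, 400 stayed within 1.5 times and 72 moved. Counts of 0 that stayed 0 are among the 400, so this total does not measure how stable the rise was. The scaling of libraries moved results most: under the same total 34 of 59 counts moved and 14 named values reversed. With the same total in each library, CCNA-GFP had 12 members above and 8 below mitosis at 40 min, 18 and 11 at 60 min, 17 and 6 at 90 min, 13 and 5 at 120 min and 8 and 4 in asynchronous cells, with 9 higher from 60 to 120 min and 15 higher and 5 lower at 120 min than in asynchronous cells. Without IAA the same total gave 15 and 8 at 40 min, 6 lower at 50 min, 22 and 6 at 60 min, 2 lower at 90 min, 22 and 2 at 120 min, 8 lower in asynchronous cells, 8 and 6 from 60 to 120 min, and 21 and 1 against asynchronous cells. With IAA it gave 15 and 7 at 40 min, 20 and 6 at 50 min, and 8, 4, 2 and 7 lower at 60, 90 and 120 min and in asynchronous cells. The changes to 60 min that reversed were Pola1 (−0.79), Pole (−0.38), Rfc1 (−0.63), Gins1 (−0.46), Timeless (−0.15) and Chaf1a (−0.23) in CCNA-GFP, Pole (−0.46), Rfc1 (−0.62), Gins1 (−0.22) and Chaf1a (−0.0048) without IAA, and Pole (−0.56), Rfc1 (−0.66), Gins1 (−0.28) and Chaf1a (−0.084) with IAA. With the sums set equal, such a value below 0 means that the gene rose less than the library sums did. Which scale lies closer to levels in the cells was not tested.

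Division by the library factor, added after the data were seen, gave 3 members at 30 min, 2 higher and 3 lower from 60 to 120 min and 13 higher at 120 min than in asynchronous cells in CCNA-GFP. It gave 1 lower at 50 min, 24 higher in asynchronous cells and 16 higher at 120 min than in asynchronous cells without IAA, and 26 higher in asynchronous cells with IAA. A pseudocount of 0.1 called 3 members at 30 min in CCNA-GFP and the filter at 1 TPM called 1. The cause was not tested.

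Without the replicate block, the pairing of numbers, 11 members were called at 40 min and 11 in asynchronous cells in CCNA-GFP, 0 higher and 0 lower from 60 to 120 min, and 14 at 120 min against asynchronous cells. Without IAA these fits called 17 at 40 min, 23 at 120 min, 2 in asynchronous cells, 10 lower from 60 to 120 min and 15 at 120 min against asynchronous cells, and with IAA 14 at 40 min, 0 lower at 50 min and 5 in asynchronous cells, while Pola1 in CCNA-GFP (−0.036) and Rfc1 with IAA (−0.015) reversed. In the IAA comparisons the block left the count of called members at 0 at every stage, and it changed no other call of a member.

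Leaving out each replicate in turn, the counts in CCNA-GFP ranged over 0–2 at 30 min, 13–20 at 40 min, 19–31 in asynchronous cells, 1–3 higher and 0–16 lower from 60 to 120 min. Without IAA they ranged over 0–1 lower at 50 min, 2–11 in asynchronous cells, 0–4 higher and 13–23 lower from 60 to 120 min, and 20–32 at 120 min against asynchronous cells, and with IAA over 0–1 lower at 50 min and 7–15 in asynchronous cells. The change of Pola1 to 60 min ranged from −0.0095 to 0.29 in CCNA-GFP, from −0.14 to 0.060 without IAA and from −0.22 to −0.066 with IAA. That of Rfc1 ranged from 0.19 to 0.45 in CCNA-GFP and from 0.038 to 0.11 with IAA. That of Pole ranged from 0.37 to 0.88 in CCNA-GFP and from 0.13 to 0.31 with IAA. The number of libraries, 2 or 3 a stage and 1 for CCNA-GFP at 50 min, limits the precision, since read depth is not known.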
